A study of Drosophila melanogaster with 6 samples.

Results

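The ELAV family of Drosophila melanogaster was followed here as 3 genes, elav, fne and Rbp9, chosen by symbol from the 17737 genes of the deposited table. The experimental larvae came from a cross of elavC155-Gal4 to a w/w stock with the transgene P(UAS-DNMT3L,w+) over the balancer Cyo and with the balancers TM2 and TM6B. The control larvae carried elavC155-Gal4, the driver that both groups share. RNA was sequenced from brains of larvae at the third instar, in 3 DNMT3L libraries and 3 control libraries. The driver is an insertion at elav that makes the yeast activator Gal4 in neurons, and DNMT3L is a mammalian cofactor of DNA methyltransferases without catalytic activity of its own. A balancer is a rearranged chromosome that blocks recombination, so offspring of such a cross get either the transgene or Cyo, and whether they were sorted is not stated in the labels. Nor do the labels give the number of driver copies in each group. They do not tie replicates to separate animals, so the p-values cover only the spread between libraries, which may be technical. Counts of the transgene or of Gal4 were not analysed here.

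ELAV family proteins bind U-rich stretches of RNA through RNA recognition motifs and set splicing, poly(A) site choice and stability of transcripts in neurons. elav is the usual marker of postmitotic neurons in the fly, and its protein in the nucleus promotes neuronal splice forms and long 3′ ends of many transcripts. FNE, named from "found in neurons", is largely cytoplasmic and can take over ELAV's work on RNA ends in the nucleus when ELAV is lost. RBP9 acts in neurons and in the female germ line, where it binds the mRNA of bam. In the deposited annotation the 3 genes share 1 orthology term, which no other of the 17737 genes carries. The term for poly(U) RNA binding is on elav and fne and on 4 genes in all, and Rbp9 is listed under mRNA 3′-UTR binding.

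All 3 genes are long in exons and have annotated transcripts with long 3′ untranslated regions (3′ UTRs). elav (FBgn0260400) lies on the minus strand of chromosome X from 509235 to 523226 (BDGP6), with 10715 bases of exons. Only 1.25% of genes in the table have more exonic bases than elav. Its 4 annotated transcripts (Ensembl release 115) have 3′ UTRs of 556 to 8557 bases, against a longest coding sequence of 1449 bases. fne (FBgn0086675) lies on the plus strand of X from 12917477 to 12950417, with 9516 exonic bases and 11 transcripts whose 3′ UTRs span 1202 to 4927 bases. Rbp9 (FBgn0010263) lies on the plus strand of 2L from 2954762 to 2968434, with 8054 exonic bases and 9 transcripts whose 3′ UTRs span 730 to 5048 bases. The counts are per gene, so short and long 3′ ends are not separated here.

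Exons of neighbours touch those of elav and Rbp9. The gene arg, on the opposite strand, overlaps 673 exonic bases of elav (6.28%), and Ts overlaps 142 of Rbp9 (1.76%). Release 115 also places lncRNA:enrr on the strand of elav, over 2994 of its exonic bases (27.9%). No separate value of lncRNA:enrr was analysed here, so elav counts may hold its reads. Whether reads were counted by strand is not stated in the labels.

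Total counts were 17928420 to 18399526 in DNMT3L libraries and 18183491 to 19251845 in control libraries. Of 9495 genes kept after removal of low counts, edgeR's quasi-likelihood test with Benjamini-Hochberg adjustment called 0 (0%), 1427 (15.0%) had an unadjusted p under 0.05, and DESeq2 called 292 (3.08%). Libraries numbered 1 stood apart in both groups and in opposite directions. Control 1 was the lowest and DNMT3L 1 the highest of the 6 libraries for 2718 of 9495 genes (28.6%), and the reverse held for 2659 (28.0%).

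elav was counted at 46.4, 23.5 and 27.2 FPKM, reads scaled by exonic length and library total, in DNMT3L libraries 1 to 3, against 2.94, 20.0 and 14.3 FPKM in control libraries 1 to 3. Every DNMT3L library was above every control library, but DNMT3L 2 was close to control 2, and control 1 was far below the rest. The means were 32.4 ± 12.3 FPKM in DNMT3L brains and 12.4 ± 8.70 FPKM in control brains (SD, n = 3 each). The log2 fold change was 1.27 ± 0.62 (SE), or 2.41-fold, which did not pass edgeR's test (adjusted p = 0.334). In bulk RNA, a different share of neurons, a different share of other tissue and a different level per neuron cannot be told apart.

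fne, the cytoplasmic paralog, stood at 53.3, 21.5 and 29.1 FPKM in DNMT3L libraries 1 to 3, against 2.81, 21.6 and 14.6 FPKM in control libraries 1 to 3. Here the groups overlapped, since DNMT3L 2 lay just under control 2. Means were 34.6 ± 16.6 FPKM in DNMT3L brains and 13.0 ± 9.50 FPKM in control brains (SD, n = 3 each), with a log2 fold change of 1.30 ± 0.67 (SE; edgeR adjusted p = 0.334).

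Rbp9 was the lowest of the family, at 1.52, 0.97 and 0.95 FPKM in DNMT3L libraries 1 to 3 and 0.45, 0.75 and 0.52 FPKM in control libraries 1 to 3. All DNMT3L libraries were above all controls. The means were 1.15 ± 0.323 FPKM in DNMT3L brains and 0.573 ± 0.157 FPKM in control brains (SD, n = 3 each). Rbp9 had the smallest fold change of the 3 genes and the lowest p, with a log2 fold change of 0.84 ± 0.30 (SE, edgeR unadjusted p = 0.027, adjusted p = 0.332). It rests on few reads, 220, 140 and 141 in DNMT3L libraries 1 to 3 and 70, 110 and 77 in control libraries 1 to 3. The exact 95% Poisson intervals of the nearest pair by FPKM are 119 to 166 reads for DNMT3L 3 and 90.4 to 133 reads for control 2, and they overlap. These intervals cover counting error only.

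**Figure D1:**
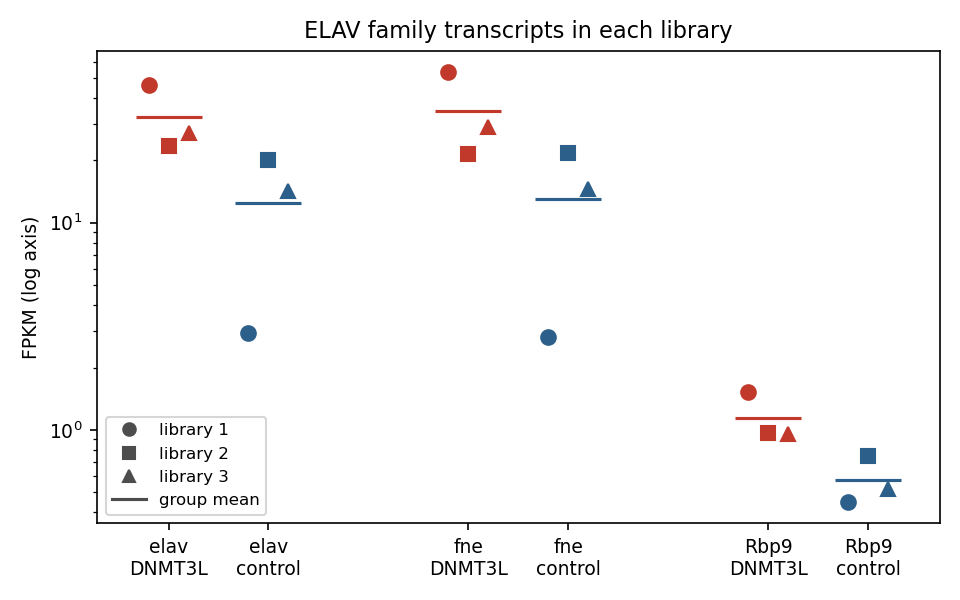
FPKM (log axis) of elav, fne and Rbp9 in each library, with the mean of each group as a line (n = 3 per group). DNMT3L library 1 is the highest and control library 1 the lowest for each gene, and control 2 at 21.6 FPKM lies just above DNMT3L 2 at 21.5 FPKM for fne.

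For elav and Rbp9 the DNMT3L libraries did not overlap the controls and were higher, as for 14.0% of all genes tested (28.1% in either direction). The order of libraries was nearly the same for each gene. Control 1 was lowest, control 3 next and DNMT3L 1 highest in all 3. Between the highest and the lowest library, CPM, counts relative to library size after TMM scaling, differed 12.9-fold for elav, 15.5-fold for fne and 2.75-fold for Rbp9. Of 8982 genes with a mean of at least 1 CPM, 3.51% spread wider than elav, 2.79% wider than fne and 31.0% wider than Rbp9. By this measure over all 6 libraries, elav and fne were among the genes that varied most, and Rbp9 was not.

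Within a library, elav and fne were at nearly the same level per exonic length. The ratio of elav to fne, in counts per exonic kilobase, was 0.87, 1.09 and 0.934 in DNMT3L libraries 1 to 3 and 1.04, 0.927 and 0.976 in control libraries 1 to 3, although elav alone spread 12.9-fold over these libraries. The log2 ratio was −0.056 ± 0.169 in DNMT3L brains and −0.027 ± 0.086 in control brains (SD, n = 3 each), a difference of −0.03 (two-sided exact permutation p = 0.9). The direction of so small a difference turned when library 1 of either group was left out. In this design of 3 against 3, no exact permutation test can go below p = 0.1. In all, 6 such within-library measures were tested, and each had a Benjamini-Hochberg adjusted p of 0.9.

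Rbp9 did not follow the other 2 in control 1. Per exonic length it made up 1.51%, 2.11% and 1.66% of the family's reads in DNMT3L libraries 1 to 3, and 7.28%, 1.77% and 1.78% in control libraries 1 to 3. The ratio of elav to Rbp9 was 30.4, 24.2 and 28.6 in DNMT3L libraries 1 to 3, against 6.51, 26.7 and 27.3 in control libraries 1 to 3. Only control 1 departed, with 70 reads of Rbp9 (exact 95% Poisson interval 54.6 to 88.4) beside 606 of elav (558.7 to 656.2). The difference in log2 ratio was 0.72 (two-sided exact permutation p = 0.4) with that library and 0.034 without it. For fne over Rbp9 the difference was 0.75 (two-sided exact permutation p = 0.5), and it was 0.018 without control 1. In 5 of the 6 libraries, then, the 3 genes kept about the same proportions in both groups.

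The family was next set against 14 markers of differentiated neurons, among them the synaptic vesicle genes nSyb and Syt1, the active zone gene brp and the sodium channel gene para. In each library the mean log2 CPM of the markers was taken from that of the member. elav lay 1.81, 1.77 and 1.72 above the markers in DNMT3L libraries 1 to 3 and 1.54, 1.89 and 1.74 above them in control libraries 1 to 3. The means were 1.77 ± 0.0465 in DNMT3L brains and 1.72 ± 0.178 in control brains (SD, n = 3 each; difference 0.047, two-sided exact permutation p = 0.8). fne lay 1.66 ± 0.185 above the markers in DNMT3L brains and 1.58 ± 0.264 above them in control brains (SD, n = 3 each; difference 0.076, two-sided exact permutation p = 0.7). For fne the difference was smaller than the SD of each group. For elav it was smaller than the SD of control brains and about equal to that of DNMT3L brains. Both differences turned negative without control 1 (−0.046 for elav and −0.062 for fne). With a trend of library deviations on exonic length removed, they were −0.22 for elav and −0.15 for fne, each with a two-sided exact permutation p = 0.1, the smallest this design allows. Rbp9 stood at −3.51, −3.22 and −3.51 relative to the markers in DNMT3L libraries 1 to 3 and at −1.54, −3.23 and −3.41 in control libraries 1 to 3 (difference −0.68, two-sided exact permutation p = 0.3), and without control 1 the difference was −0.092.

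**Figure D2:**
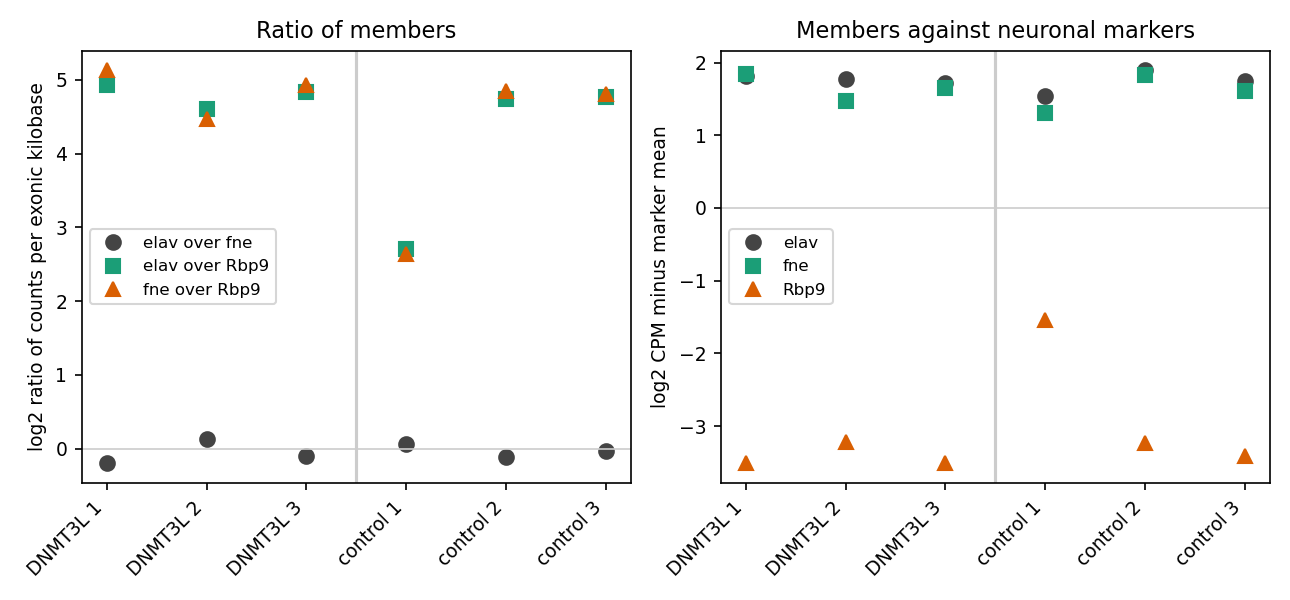
Left, log2 ratio of counts per exonic kilobase between members in each library; right, log2 CPM of each member minus the mean log2 CPM of 14 neuronal markers. elav over fne stays within −0.20 and 0.13 in all 6 libraries, and the ratios to Rbp9 leave the range of the other libraries only in control 1, at 2.70 for elav and 2.64 for fne.

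The gene lists here and below were chosen with earlier results of these data known, so their counts are descriptions and not independent support. All 14 neuronal markers had a positive log2 fold change, against 47.7% of all genes tested, a share that also applies to the lists below. Their median was 1.19, against −0.03 over all genes. None was called by edgeR, and 11 did not overlap between groups and were higher in DNMT3L, which held for 14.0% of all genes tested. The median was 0.77 without control 1, 0.51 without both libraries numbered 1 and 0.81 with the length trend removed. Appl, the fly homolog of the amyloid precursor gene, was at 434 ± 250.0 CPM in DNMT3L brains and 186 ± 116 CPM in control brains (SD, n = 3 each). Csp, a vesicle chaperone gene, was at 257 ± 5.90 CPM in DNMT3L brains and 169 ± 37.8 CPM in control brains, and nrv3, a subunit gene of the neuronal sodium pump, at 211 ± 47.9 CPM in DNMT3L brains and 94.7 ± 60.9 CPM in control brains. elav and fne, at 1.27 and 1.30, were near the median of these markers.

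Other RNA-binding protein genes of the nervous system were all on the same side. Of 17, 17 had a positive log2 fold change with a median of 0.78, none was called, and 4 did not overlap between groups and were higher in DNMT3L, against 14.0% of all genes tested. The median was 0.48 without control 1 or without DNMT3L 1, 0.12 without both and 0.13 with the length trend removed. Syp, which acts in neuronal temporal identity, was at 716 ± 325 CPM in DNMT3L brains and 344 ± 201 CPM in control brains (SD, n = 3 each). brat, a translational repressor that restrains neuroblast growth, was at 503 ± 257 CPM in DNMT3L brains and 245 ± 155 CPM in control brains. heph, the polypyrimidine tract binding protein gene, had the smaller difference, at 340 ± 60.5 CPM in DNMT3L brains and 271 ± 56.7 CPM in control brains.

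Among 13 genes whose RNA is known from fly work to be bound or processed by the family, 12 had a positive log2 fold change, with a median of 0.87, and none was called. In 3 of them the groups did not overlap and DNMT3L was higher, against 14.0% of all genes tested. The median was 0.49 without control 1, 0.48 without DNMT3L 1, 0.12 without both and 0.27 with the length trend removed. Some of these genes, brat among them, are also on the list of RNA-binding protein genes, so the 2 lists are not separate. The values of brat are given above. emc, an inhibitor of proneural factors, was at 467 ± 75.4 CPM in DNMT3L brains and 332 ± 81.9 CPM in control brains (SD, n = 3 each). arm, the beta-catenin gene whose neuronal splicing depends on ELAV, was the gene with a negative value, at 1077 ± 145 CPM in DNMT3L brains and 1090 ± 150.1 CPM in control brains. Total counts say nothing of the splice forms or 3′ ends of these genes.

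Cleavage and polyadenylation factors, the machinery at which ELAV acts on 3′ ends, had a median near zero, with genes on both sides. Of 12 genes tested 6 had a positive log2 fold change, the median was −0.01, and none was called. The groups did not overlap for 1 gene higher and 1 gene lower in DNMT3L, against 14.0% and 14.1% of all genes tested. Fip1, a subunit of the cleavage and polyadenylation specificity factor, was at 117 ± 5.88 CPM in DNMT3L brains and 123 ± 6.48 CPM in control brains (SD, n = 3 each). The poly(A) polymerase gene hrg was at 226 ± 44.0 CPM in DNMT3L brains and 170 ± 40.3 CPM in control brains, and Pcf11, a termination factor gene, at 164 ± 43.6 CPM in DNMT3L brains and 125 ± 28.7 CPM in control brains.

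Transcription factors of neuronal differentiation had a positive log2 fold change for 6 of 6, with a median of 1.13, and neuroblast markers for 6 of 6, with a median of 0.54. None of either list was called, and in 4 genes of each the groups did not overlap and DNMT3L was higher, against 14.0% of all genes tested. For the differentiation factors the median was 0.70 without control 1, 0.38 without both libraries numbered 1 and 0.75 with the length trend removed. For the neuroblast markers it was 0.38, 0.39 and 0.61 under the same settings. pros, which ends self-renewal in neuroblast daughters, was at 803 ± 491 CPM in DNMT3L brains and 247 ± 155 CPM in control brains (SD, n = 3 each). lola, a factor that keeps neurons from reverting to stem cells, was at 994 ± 238 CPM in DNMT3L brains and 578 ± 240 CPM in control brains, and nerfin-1, needed to keep neurons differentiated, at 304 ± 85.0 CPM in DNMT3L brains and 159 ± 92.9 CPM in control brains. The neuroblast gene mira, whose protein carries fate determinants, was at 236 ± 31.4 CPM in DNMT3L brains and 183 ± 45.6 CPM in control brains, the transcription factor gene wor at 90.9 ± 5.93 CPM in DNMT3L brains and 57.3 ± 17.1 CPM in control brains, and grh, also a transcription factor gene, at 70.0 ± 24.0 CPM in DNMT3L brains and 60.2 ± 26.5 CPM in control brains. Of 10 glial markers 6 had a positive log2 fold change, the median was 0.11 and 1 did not overlap between groups, against 28.1% of all genes tested in either direction. Gs2, a glutamine synthetase gene, was at 578 ± 191 CPM in DNMT3L brains and 696 ± 146 CPM in control brains. The glial genes nrv2 and alrm were at 264 ± 42.1 and 165 ± 21.9 CPM in DNMT3L brains and at 256 ± 20.4 and 169 ± 40.5 CPM in control brains.

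Markers of tissues other than brain were mostly lower in DNMT3L libraries. All 8 muscle genes, all 4 cuticle genes and 5 of 6 fat body genes had a negative log2 fold change, with medians of −1.31, −1.61 and −1.07, and none was called. Without both libraries numbered 1 these medians were −0.59, −0.53 and −0.59, and without control 1 alone the cuticle median was −0.92. With the length trend removed the medians were −1.38, −1.20 and −1.13. Fbp2 was the exception, at 20.4 ± 3.75 CPM in DNMT3L brains and 0.931 ± 0.527 CPM in control brains (SD, n = 3 each). The summed level of the muscle list was 92.0 to 344 CPM in DNMT3L libraries and 410 to 867 CPM in control libraries. That of the cuticle list was 76.9 to 322 CPM in DNMT3L libraries and 289 to 1051 CPM in control libraries, and that of the fat body list 510 to 783 CPM in DNMT3L libraries and 1082 to 2037 CPM in control libraries. No gene of these lists was at 0 in any library. Control 1, lowest for all 3 family genes, had the highest sum of each of these lists, and DNMT3L 1, highest for the family, the lowest. In control 2 and DNMT3L 2 the muscle and cuticle medians lay on the same side of the mean of 6 libraries as elav. They deviated by 0.21 and 0.061 for muscle and by 0.017 and 0.16 for cuticle. The fat body median was on that side in control 2, at 0.079, but in DNMT3L 2 it was at −0.57, against 0.38 for elav. The part of these lists in the result was not tested. The 14 neuronal markers summed to 1424 to 2712 CPM in DNMT3L libraries and 347 to 1207 CPM in control libraries.

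Library deviations also followed exonic length. A smooth trend of log2 deviation on log2 exonic size was fitted to each library over all genes tested. The fit took no account of group or tissue, so its removal can also take out part of a difference between groups or tissues. How much of the trend comes from length itself was not tested. At the length of elav its value was 0.96, 0.13 and 0.18 in DNMT3L libraries 1 to 3, and −1.33, 0.21 and −0.16 in control libraries 1 to 3. The deviations of elav itself were 1.37, 0.38 and 0.56 in DNMT3L libraries 1 to 3, and −2.31, 0.21 and −0.21 in control libraries 1 to 3. With the trend removed, the log2 fold change was 0.62 for elav, 0.68 for fne and 0.04 for Rbp9, so that for Rbp9 almost nothing remained. edgeR's adjusted p were then 0.201, 0.235 and 0.951. In control 1 the trend at the length of Rbp9 was −1.18, further down than Rbp9 itself at −0.58.

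**Figure D3:**
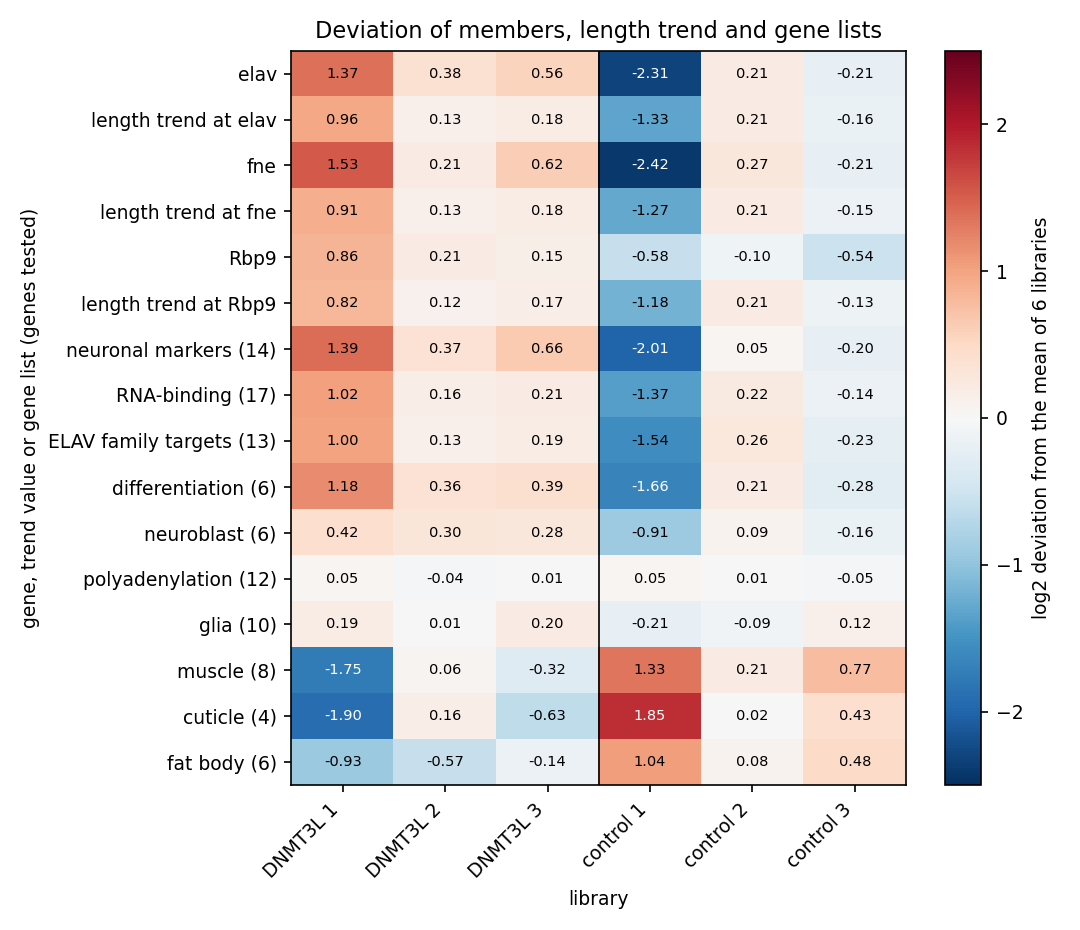
Log2 deviation from the mean of 6 libraries for each member, for the length trend at that member's exonic size, and for the median gene of each list (number of genes tested in parentheses). elav at −2.31 and fne at −2.42 in control 1 lie below the trend value there, and muscle and cuticle medians lie above 0 there. The median of the polyadenylation factors, though not each factor, stays between −0.052 and 0.051.

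Genes beside the members did not move as a block. Of the 3 nearest genes on each side of elav, 4 passed the low-count filter. Appl, the third gene upstream of elav, had a log2 fold change of 1.22 ± 0.62 (SE), close to that of elav. Between them, CG4293 had −0.05 ± 0.14 and arg, whose exons overlap elav, −0.19 ± 0.33, and svr on the other side had 0.65 ± 0.33, with no edgeR call among the 4 (adjusted p of 0.334 to 0.82). arg was at 2.54 ± 0.749 CPM in DNMT3L brains and 2.90 ± 0.545 CPM in control brains (SD, n = 3 each), far fewer reads than elav. Beside fne, hec, a receptor gene downstream on the opposite strand, was at 3.77 ± 0.590 CPM in DNMT3L brains and 1.41 ± 0.872 CPM in control brains, with log2 fold change 1.41 ± 0.53 (SE), and CG4645 had 0.13 ± 0.17. Beside Rbp9, the long gene lilli upstream had 0.87 ± 0.59, while Ts, whose exons overlap its end, had −0.71 ± 0.31, and betaggt-II, NTPase, Rrp1 and gammaTub23C lay between −0.24 and 0.13. None of these was called by edgeR.

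The genes most like each member were ranked by Pearson's r of log2 CPM over the 6 libraries, among 9494 genes. These values are descriptions, since all genes share the same libraries and 2 of these libraries set much of the spread. Pearson's r also takes no account of the size of a change. Nearest to elav were CG15478, Galphao, tow, CG6024 and CG2519, with r of 0.9994 to 0.9998. Their log2 fold changes ran from 0.61 for CG15478 to 1.15 for Galphao, against 1.27 for elav. Galphao, a G protein subunit gene abundant in neurons, was at 348, 194 and 206 CPM in DNMT3L libraries 1 to 3 and 39.1, 165 and 133 CPM in control libraries 1 to 3. Nearest to fne were Toll-6, swm, CG33181, Hmx and CCKLR-17D3, with r of 0.9994 to 0.9997. Their log2 fold changes ran from 0.42 for swm to 1.27 for Toll-6, against 1.30 for fne. Toll-6, a Toll family receptor gene expressed in neurons, was at 45.4, 18.1 and 23.8 CPM in DNMT3L libraries 1 to 3 and 3.22, 18.9 and 14.0 CPM in control libraries 1 to 3, the same overlap of DNMT3L 2 with control 2 as in fne. At the lower mark of r of at least 0.95, the number of genes was 1612 with elav and 1656 with fne. fne was number 52 in the order for elav (r = 0.997), and elav number 46 in that for fne.

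Rbp9 had other genes nearest to it by Pearson's r. Its nearest were mip120, CG4896, CG9795, BOD1 and Pitslre, with r of 0.988 to 0.997, and 76 genes had r of at least 0.95. mip120, a subunit gene of the Myb-MuvB chromatin complex, was at 74.7, 60.1 and 60.0 CPM in DNMT3L libraries 1 to 3 and 45.8, 54.7 and 48.4 CPM in control libraries 1 to 3. These genes did not fall in control 1 as far as elav did, and none was called by edgeR. Their log2 fold changes ran from 0.33 for BOD1 to 0.57 for CG9795, against 0.84 for Rbp9. The genes nearest to elav and fne also had smaller log2 fold changes than the member itself. Rbp9 was number 2778 in the order for elav (r = 0.828). By the rank order of the 6 libraries the members were closer. Spearman's rho with elav was 0.943 for Rbp9 and 0.943 for fne, and between fne and Rbp9 it was 0.829.

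The fold changes of all 3 genes were lower without either library numbered 1. Without control 1 the log2 fold change was 0.83 for elav, 0.85 for fne and 0.76 for Rbp9, and without DNMT3L 1 it was 0.90 for elav, 0.83 for fne and 0.57 for Rbp9. With both libraries left out, elav was at 0.46 ± 0.16 (SE), fne at 0.38 ± 0.20 and Rbp9 at 0.49 ± 0.30, with edgeR adjusted p of 0.293, 0.49 and 0.55. The positive direction remained for each gene under all 16 other settings. Rbp9 passed a threshold once, at adjusted p = 0.0447 in voom with library quality weights, which called 1126 genes (11.9%) and gave control 1 a weight of 0.167.

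**Figure D4:**
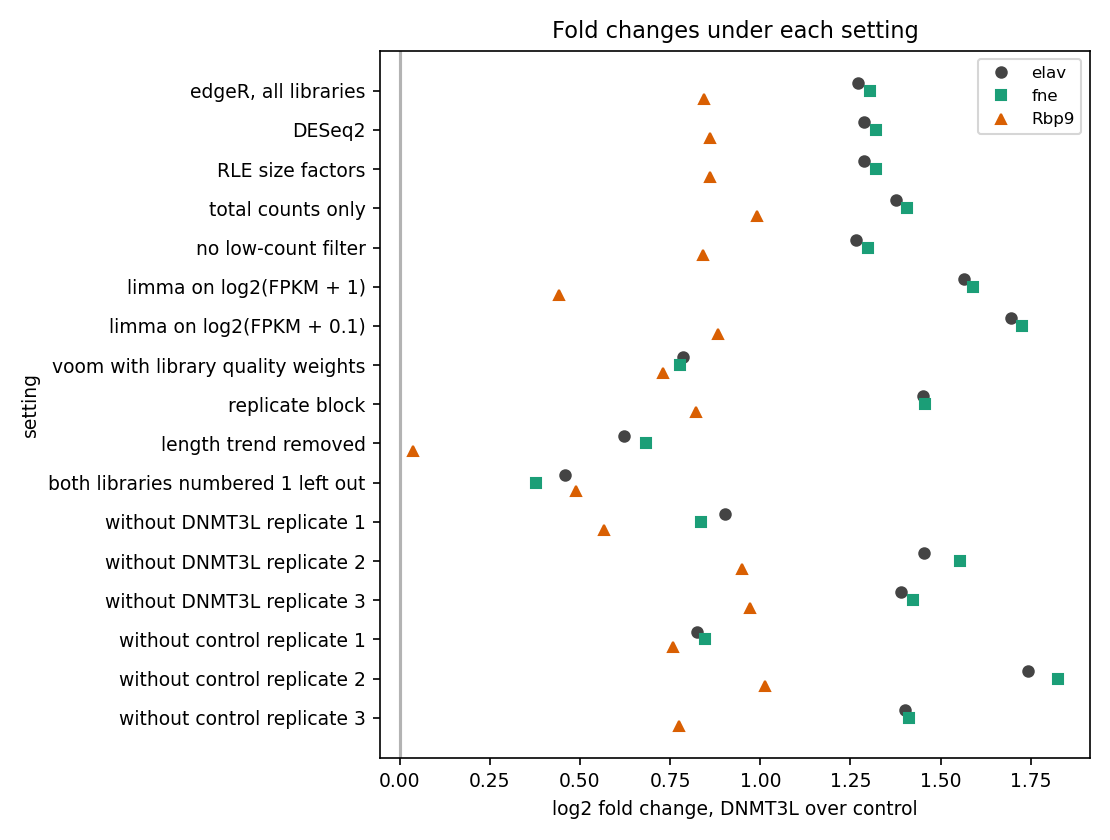
Log2 fold change of DNMT3L over control for elav, fne and Rbp9 under edgeR with all libraries and under 16 other settings. All values are above 0, elav and fne lie between 0.38 and 1.82, and Rbp9 drops to 0.04 once the length trend is removed.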

How the data were processed

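Per the labels' protocols, brain RNA was isolated with TRIzol or RNeasy and fragments were primed at random, following poly(A) selection or depletion of rRNA. The labels do not say which method each library had. Per the submitters' processing notes, the builds were BDGP6 and dm6 and the tools HTSeq 0.6.1, HISAT2 2.0.1, DESeq2, cutadapt 1.9.1 and bcl2fastq 2.17.1.14. The authors deposited raw read counts per gene and FPKM values for each library, with exonic sizes and coordinates. The deposited FPKM could be recomputed from counts, exonic size and total count within rounding (0.0051) for 100% of values. Of 17737 identifiers, 17599 were in Ensembl release 115, 17465 with identical coordinates.

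Counts were filtered with filterByExpr (8242 genes removed, 9495 kept), scaled by TMM and compared with edgeR 4.0.16 (glmQLFit and glmQLFTest, two-sided, group as the single term, Benjamini-Hochberg adjustment over all genes tested, threshold 0.05) in R 4.3.3. Each standard error is the log2 fold change divided by the root of its F. CPM are TMM-scaled, and log2 CPM used a prior count of 2. The edgeR step was tested on simulated counts drawn for each gene separately. They held no shift shared by many genes of a library, so the test does not cover outlying libraries such as those numbered 1. Permutation tests were exact (scipy 1.17.1 under Python 3.11.15), and plots were drawn with matplotlib 3.10.9. Alternatives were DESeq2 1.42.0, other scalings, no filter, limma 3.58.1 on log2(FPKM + 1) or log2(FPKM + 0.1), voom with library weights, a replicate block, subtraction of a loess trend on log2 exonic size (span 0.5) from every library, and libraries left out. The same settings for the medians of gene lists were added after the data were seen. The members and gene lists were chosen with earlier results of these data known. The text names the 3 members, the 3 genes with the highest mean CPM in a list where none was called, the 3 nearest genes on each side of a member, and the 5 genes most correlated with each member. Fbp2 was named after its value was seen. Of the 97 list entries, 1 matched no gene. Muscle, cuticle and fat body lists are given as sums and counts.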

Additional observations from a re-analysis of the deposited data

How the results depend on the processing

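The log2 fold changes of elav, fne and Rbp9 were positive under all 16 alternatives, from 0.46 to 1.74, 0.38 to 1.82 and 0.04 to 1.01, with adjusted p of 0.0757 to 0.702, 0.104 to 0.713 and 0.0447 to 0.951. Rbp9 was called once, by voom with library weights (log2 fold change 0.73, adjusted p = 0.0447). With 1 library left out, values lay between 0.83 and 1.74 for elav, 0.83 and 1.82 for fne and 0.57 and 1.01 for Rbp9. The number of genes called, 0 by edgeR, was 292 by DESeq2, 2 with RLE size factors, 1 with total counts, 6 without the filter, 13 and 11 by limma on log2(FPKM + 1) and log2(FPKM + 0.1), 1126 by voom with weights, 13 with the length trend removed and 23 without both libraries 1, and it stayed 0 with any 1 library left out. The cause was not tested. Total counts moved the median of all genes to 0.14, against −0.03, and limma on FPKM to 0.12 or 0.14.

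Differences within libraries that lay near zero changed direction. elav over fne, at −0.03, was 0.087 without both libraries 1 and lay between −0.12 and 0.042 with 1 library left out. elav over Rbp9 and fne over Rbp9 were −0.037 and −0.12 without both libraries 1, and between 0.034 and 1.07 and between 0.018 and 1.12 with 1 left out. elav against neuronal markers was −0.22 with the length trend removed and −0.068 without both libraries 1, and fne −0.15 and −0.16. With 1 library left out they lay between −0.046 and 0.13 and between −0.062 and 0.20. The exact permutation p with the trend removed was 0.1 for both, the smallest this design allows, and for elav and fne alike the other p were 0.4 or more.

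Medians of the lists with values mostly above zero (neuronal markers, RNA-binding genes, targets, differentiation and neuroblast genes) and mostly below zero (muscle, cuticle, fat body) kept their sign under every setting. voom with weights gave 0.73 for neuronal markers, 0.39 for RNA-binding genes, 0.42 for targets and −0.93 for cuticle. The glial median, 0.11, was 0.27 with total counts and 0.028 without both libraries 1, and that of polyadenylation factors, −0.01, was 0.15 with total counts and −0.077 with the length trend removed.

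The deviations of libraries with the same replicate number from their group means correlated at −0.66, −0.54 and −0.18. Libraries of different number correlated at −0.34 to 0.69. Whether same-numbered libraries belong together cannot be told from these values, since the libraries numbered 1 lay at opposite ends. With the number as a replicate block edgeR again called 0 genes, with 458 against 1427 at an unadjusted p under 0.05, and log2 fold changes were 1.45 for elav, 1.46 for fne and 0.82 for Rbp9 (adjusted p = 0.652 each). Depth limits Rbp9 alone among the members, with 70 reads in its lowest library, against 606 for elav and 515 for fne.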
